A study of Mus musculus with 22 samples.

Results

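The p53 pathway genes described here are 34 genes chosen by name: inhibitors of p53, its feedback and cell cycle targets, death receptors and apoptosis genes, DNA repair genes, and targets that act on stress, growth signalling and metabolism. The rule names genes and sets no threshold on a measured value, though the list was drawn up with earlier results of these data known. Of the 34 genes, 32 were read by a probe carrying a single gene symbol, out of 19752 genes measured in all, and Trp53 itself and Gdf15 were not analysed here. All 32 had a mean intensity of at least 100 in some group, the level used for a filter on dim probes.

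RNA was measured on 22 Affymetrix arrays of medullary epithelial cells (MECs) from the thymus of C57Bl/6 mice, either Aire+/+ (WT) or Aire-/- (KO). Aire is a transcriptional regulator of medullary epithelium that drives expression of genes otherwise restricted to other tissues. Mice were labelled DMSO (the vehicle), Etopo, Topo, or EtopoTopo for both drugs together, with 3 arrays in each group except KO Etopo and KO EtopoTopo, which had 2. These abbreviations commonly stand for etoposide and topotecan, inhibitors of topoisomerase II and topoisomerase I, but the labels used here do not spell them out, and no dose, route or duration is given in them. The age label is 4 weeks for the 5 EtopoTopo arrays of both genotypes, for WT DMSO 3 and for WT Etopo 3, and 6 weeks for the rest. WT EtopoTopo 1 and 2 carry both drugs in their titles and Etopo alone in their treatment label, and the titles were followed. The labels do not state if RNA of 1 mouse or of a pool went onto an array, nor how the Aire allele was made. The p-values below therefore reflect array-to-array spread, part or all of which may be technical.

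The p53 protein is held at a low level by Mdm2 and Mdm4. DNA damage, including the strand breaks left by trapped topoisomerases, activates kinases that release p53 from these inhibitors, and p53 then binds DNA at paired copies of a short motif to switch on genes that stop the cell cycle, repair DNA, restrain growth or kill the cell. Several targets, Mdm2 among them, feed back on p53, so transcripts of the target genes are commonly read as a sign of p53 activity. In thymic epithelium p53 is known as a regulator of medullary development and function.

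The p53 motif of 10 bases, of which a full site has a pair, was searched on both strands in RefSeq promoter windows reaching from 250 bases before to 50 bases after each transcript start (build GRCm38.p6). Windows were found for 24 of the 32 members, 31 windows in all, and 8 of these windows (25.8%), from 7 genes, held the motif, against 8.36% of all 32851 windows. No member window held a pair of motifs separated by at most 13 bases, as 24 windows of the whole table did. The stretches around the motif in 4 members are shown because the array values below turn on 3 of them, Sesn1, Gadd45a and Polk, and because the fourth, Mdm2, encodes the main inhibitor of p53. Capitals mark the motif, and each stretch reads 5′ to 3′ on the strand of the gene. They lie at chr10:41887246-41887305 on the plus strand (Sesn1), chr6:67037408-67037467 on the minus strand (Gadd45a), chr13:96519379-96519437 on the minus strand (Polk) and chr10:117710905-117710964 on the minus strand (Mdm2).
Sesn1: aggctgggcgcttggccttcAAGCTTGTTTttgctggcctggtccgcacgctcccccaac
Gadd45a: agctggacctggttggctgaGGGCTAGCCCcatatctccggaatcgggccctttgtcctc
Polk: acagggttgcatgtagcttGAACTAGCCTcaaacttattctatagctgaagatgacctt
Mdm2: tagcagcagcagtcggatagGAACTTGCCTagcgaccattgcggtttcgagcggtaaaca
A match describes these letters only and does not show that p53 binds there. The other members with a match were Ccng1, Ei24 and Aen.

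Values below are log2 of the deposited intensity, and a difference of 1 on this scale is a doubling. Differences were tested with limma over all 19752 genes, and a gene is said to rise or fall where its Benjamini-Hochberg adjusted p was under 0.05. Medullary epithelial markers were read on every array (16 of 16 listed genes, mean of the list 10.94 to 11.76). Lists for other cells also gave signal on every array, with list means of 6.98 to 8.60 for thymocytes (15 of 17 genes), 7.62 to 8.20 for macrophages and dendritic cells (13 of 13), 7.91 to 8.43 for B cells (6 of 7) and 7.81 to 8.22 for stroma and endothelium (10 of 10). Genes within a list differed widely in their medians over the arrays. These ran from 5.61 (Clec9a) to 12.53 (Lyz2) for macrophages and dendritic cells. They ran from 6.43 (Lum) to 10.80 (Dcn) for stroma and endothelium, and from 6.46 (Cd79a) to 10.42 (Cd79b) for B cells. RNA of other cells was therefore not shown to be absent, and its part in the results was not tested. The Aire probe gave 12.31 ± 0.11 (SD, n = 3) in WT DMSO and 12.91 ± 0.04 (SD, n = 3) in KO DMSO. It therefore did not separate the genotypes downward, and since the deleted part of Aire and the part the probe reads are not given in the sources used here, it does not check the genotype labels. Among arrays of the same group the lowest correlation was 0.961, between both KO EtopoTopo arrays. KO EtopoTopo 1 also had the narrowest spread of intensities, with 3.89 log2 units between its 10th and 90th percentiles against up to 5.01 on the others. In bulk RNA, fewer cells of a type and less RNA per cell cannot be told apart.

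Without any drug, KO cells differed from WT cells at 9 of the 32 p53 pathway genes: 7 rose and 2 fell. The largest increases were of Sesn1 and Eda2r, each by about a doubling, and the decreases were of Perp and Ephx1. Over all genes 19.4% were called in this comparison, 7.4% rising and 12% falling, against 21.9% of the members rising and 6.25% falling. The members' median difference was 0.14, beside -0.01 over all genes, and 20 of 32 members had a positive difference. The KO and WT arrays did not overlap for 10 members that were higher in KO and 3 that were lower, against 13.6% and 18.2% of all genes.

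**Figure D1:**
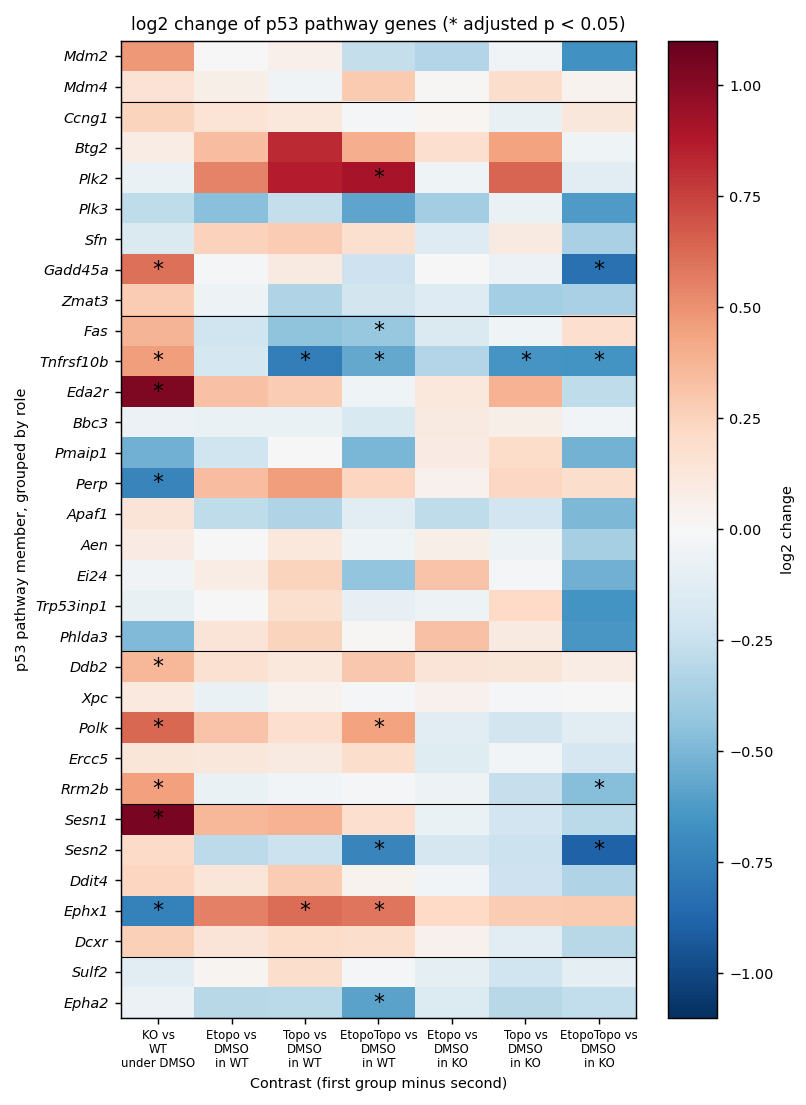
Log2 change (colour: red positive, blue negative) of each of the 32 p53 pathway genes (rows, by role) in KO against WT under DMSO and in each drug against DMSO within each genotype (columns), with stars where the adjusted p was under 0.05. The first column holds 9 stars, the single-drug columns hold 3 in all, and the EtopoTopo columns hold 7 in WT and 4 in KO.

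Among the growth and metabolism genes, Sesn1, a sestrin that restrains mTORC1 signalling, read 8.75, 8.81 and 8.61 on the WT DMSO arrays and 9.94, 9.64 and 9.71 on the KO DMSO arrays. The groups were well apart, and Sesn1 rose by 1.04 ± 0.16 (SE, adjusted p = 4.7e-05). Ephx1, an epoxide hydrolase that detoxifies reactive epoxides, read 9.57, 9.84 and 9.84 in WT DMSO against 8.78, 9.12 and 9.11 in KO DMSO. All KO arrays were below all WT arrays, a change of -0.74 ± 0.16 (adjusted p = 0.00157). The other 3 of these 5 genes (Sesn2, Ddit4 and Dcxr) had differences that did not pass the test.

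Of the 11 death receptor and apoptosis genes, 2 rose and 1 fell. Eda2r, a receptor of the TNF receptor family that binds ectodysplasin A2, read 7.50, 7.07 and 6.89 in WT DMSO and 8.56, 8.11 and 7.87 in KO DMSO. The lowest KO array lay above the highest WT array, and Eda2r rose by 1.03 ± 0.19 (adjusted p = 0.000431). Tnfrsf10b, the mouse TRAIL death receptor, read 10.20, 10.09 and 10.48 against 10.69, 10.63 and 10.84, again without overlap, and rose by 0.46 ± 0.15 (adjusted p = 0.0285). Perp, a membrane protein of desmosomes that p53 also induces in apoptosis, went the other way, with 10.97, 11.12 and 10.93 in WT DMSO and 9.96, 10.59 and 10.29 in KO DMSO. Perp fell by 0.73 ± 0.15 (adjusted p = 0.00101). Fas, a death receptor, was 0.37 ± 0.14 higher in KO without passing the test (adjusted p = 0.0606).

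All 5 DNA repair and nucleotide supply genes had a positive difference, with a median of 0.36, and 3 of them rose. Polk, a translesion DNA polymerase, read 8.37, 7.85 and 8.24 in WT DMSO and 8.86, 8.82 and 8.65 in KO DMSO, and rose by 0.63 ± 0.13 (adjusted p = 0.00152). Rrm2b, the p53-inducible subunit of ribonucleotide reductase, read 8.51, 8.54 and 8.48 against 9.24, 8.72 and 8.93 (change 0.45 ± 0.15, adjusted p = 0.0373). Ddb2, which recognises UV lesions for nucleotide excision repair, read 8.19, 8.05 and 8.45 against 8.52, 8.52 and 8.74 (change 0.36 ± 0.12, adjusted p = 0.0360). None of these 3 genes overlapped between the groups. Xpc and Ercc5, both of nucleotide excision repair, did not pass the test.

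Among the 7 feedback and cell cycle genes, Gadd45a, a stress protein that promotes arrest and repair, was the only one that rose. It read 9.23, 9.10 and 8.72 in WT DMSO and 9.48, 9.70 and 9.69 in KO DMSO, with no overlap (change 0.61 ± 0.19, adjusted p = 0.0240). Mdm2, the ubiquitin ligase that degrades p53, was 0.47 ± 0.22 higher in KO (adjusted p = 0.146). Its arrays overlapped, at 11.02, 10.23 and 10.43 in WT DMSO against 11.50, 10.93 and 10.67 in KO DMSO. Neither Mdm2 nor its relative Mdm4 passed the test.

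Sesn1, Eda2r, Polk, Perp and Ephx1 kept their calls when any single DMSO array was left out, and the other 4 did not. Gadd45a lost its call without WT DMSO 3, KO DMSO 2 or KO DMSO 3 (adjusted p 0.0753 to 0.145), Ddb2 without WT DMSO 1, WT DMSO 2 or KO DMSO 3 (0.0750 to 0.192), Tnfrsf10b without WT DMSO 1, WT DMSO 2, KO DMSO 1 or KO DMSO 3 (0.0561 to 0.143), and Rrm2b without any 1 of the DMSO arrays except KO DMSO 2 (0.0650 to 0.204). Without KO DMSO 3 the count of members called was 5. With quantile normalization 5 members rose and 3 fell, and with each array centred on its median 10 rose and 2 fell. On the 6-week arrays alone, Sesn1 was 0.98, Eda2r 0.89 and Polk 0.67 higher in KO, and all 3 stayed past the test. Gadd45a lost its call on those arrays, and both Gadd45a and Rrm2b lost theirs with age as a covariate. A list of cornified epithelium genes (13 of 14 measured), a mature keratinised state in which Perp is also expressed, had means of 9.42 to 9.81 in WT DMSO and of at most 9.06 in KO DMSO. Of its 13 measured genes 5 fell and none rose. The array means of WT and KO did not overlap for this list or for either of the following. A macrophage and dendritic cell list had array means of up to 8.20 in WT DMSO (median 8.12) and 7.62 to 7.79 in KO DMSO, with 5 of 13 genes falling and 1 rising. A cortical epithelium list had 9.61 to 9.64 against 9.28 to 9.54, with 3 of 9 genes falling. The part of these 3 lists in the members' values was not tested.

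**Figure D2:**
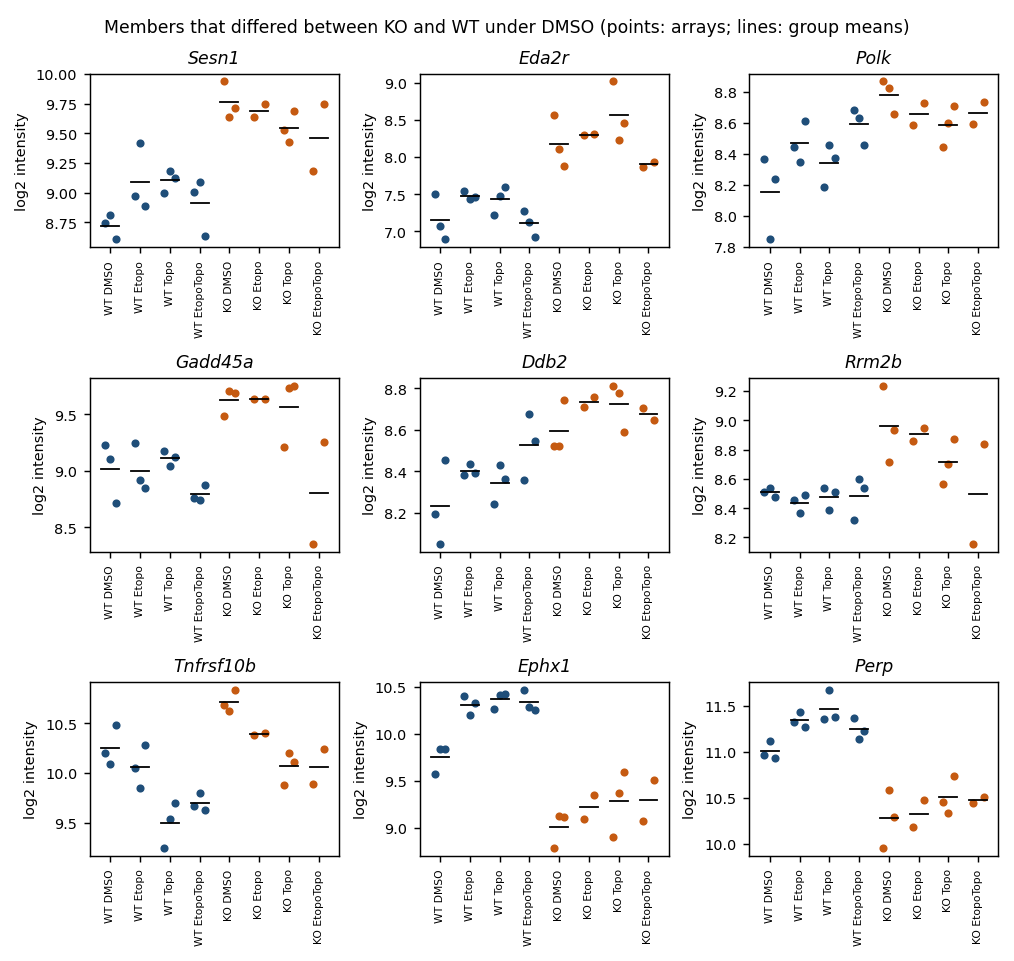
Log2 intensity of the members called between KO and WT under DMSO, on every array, by genotype (WT blue, KO orange) and treatment (points: arrays; lines: group means). Eda2r lies at 6.89 to 7.60 on the WT arrays and at 7.87 to 9.02 on the KO arrays, and Perp lies at 10.93 to 11.67 on the WT arrays and at 9.96 to 10.74 on the KO arrays.

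The genotype difference of several members was also seen under the drugs. The arrays of both genotypes did not overlap within any of the 4 treatments for 7 members. Fas, Tnfrsf10b, Eda2r and Sesn1 were higher in KO each time, as 4.11% of all genes were, and Perp, Phlda3 and Ephx1 were lower each time, as 6.2% of all genes were. Phlda3 encodes a pleckstrin-homology protein that inhibits Akt. Over all 12 WT and 10 KO arrays, whatever the treatment, 2 members did not overlap. Eda2r ranged from 6.89 to 7.60 (median 7.35) in WT and from 7.87 to 9.02 (median 8.26) in KO, where 1.78% of genes were higher without overlap. Perp ranged from 10.93 to 11.67 (median 11.30) in WT and from 9.96 to 10.74 (median 10.45) in KO, where 3.56% of genes were lower without overlap. Fas overlapped only slightly, at 9.11 to 9.87 in WT and 9.86 to 10.52 in KO. So did Ephx1, at 9.57 to 10.47 in WT and 8.78 to 9.59 in KO. Sesn1 overlapped more, at 8.61 to 9.42 in WT and 9.18 to 9.94 in KO, where KO EtopoTopo 1 gave the lowest KO value.

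Etopo alone changed no p53 pathway gene past the test in either genotype. In WT, limma called 0 of 32 members (0.00506% of all genes, that is 1 gene), and 4 members had an unadjusted p under 0.05, all with positive differences, beside 5.55% of all genes. These were Ephx1, Perp, Polk and Sesn1. The members' median difference was 0.05, beside -0.04 for all genes. Ephx1 read 10.40, 10.20 and 10.32 in WT Etopo, above all 3 WT DMSO arrays (difference 0.56 ± 0.16, adjusted p = 0.423). Plk2, a polo-like kinase of the stress response, read 8.77, 7.94 and 8.30 in WT DMSO and 8.91, 8.87 and 8.85 in WT Etopo, where every Etopo array was higher (difference 0.54 ± 0.27, adjusted p = 0.915). Sesn1 was also higher on every Etopo array, at 8.97, 9.42 and 8.89 (difference 0.37 ± 0.16, adjusted p = 0.832). Plk3, a stress kinase related to Plk2, read 9.41, 8.53 and 8.34 in WT DMSO and 8.41, 8.42 and 8.06 in WT Etopo, where the arrays overlapped (difference -0.46 ± 0.25, adjusted p = 0.984). The inhibitor gene Mdm2 was level between the groups, with a difference of 0.00 ± 0.22. In all, 5 members were higher and none lower without overlap between the arrays, against 4.32% and 7.31% of all genes.

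In KO, limma called 0 of 32 members with Etopo (0% of all genes), and none had an unadjusted p under 0.05, beside 707 of all genes. The largest differences were -0.38 for Plk3, -0.33 for Mdm2, -0.32 for Tnfrsf10b and 0.32 for Phlda3 (adjusted p = 0.999 for each). Plk3 read 9.08, 8.18 and 8.18 in KO DMSO and 8.16 and 8.03 in KO Etopo, just below all DMSO arrays but far below the first alone. Tnfrsf10b read 10.38 and 10.40 in KO Etopo, below all 3 KO DMSO arrays. Mdm2 (10.70 and 10.72 in KO Etopo) overlapped with KO DMSO, and Phlda3 did so too, at 9.33, 9.89 and 9.83 in KO DMSO against 9.85 and 10.16. No member was higher and 5 were lower without overlap, against 16.9% and 12.8% of all genes. The difference between genotypes in the Etopo effect was past the test for 0 of 32 members (0% of all genes). At an unadjusted p under 0.05 there was 1 member (3.13%, beside 4.59% of all genes).

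Topo alone changed 2 members in WT cells, the death receptor gene Tnfrsf10b, which fell, and Ephx1, which rose. This stood beside 2.21% of all genes called, 0.83% rising and 1.38% falling, against 3.13% of members in each direction. The arrays did not overlap for 6 members that were higher and 2 that were lower, against 8.56% and 11.4% of all genes. Tnfrsf10b read 10.20, 10.09 and 10.48 in WT DMSO and 9.25, 9.53 and 9.69 in WT Topo. Every Topo array was below every DMSO array, and Tnfrsf10b fell by 0.76 ± 0.15 (adjusted p = 0.00648). Ephx1 read 9.57, 9.84 and 9.84 in WT DMSO and 10.26, 10.41 and 10.42 in WT Topo, again without overlap, and rose by 0.62 ± 0.16 (adjusted p = 0.0413).

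The largest differences with Topo in WT were those of the cell cycle genes Plk2 and Btg2, which did not pass the test. Plk2 was 0.87 ± 0.27 higher (adjusted p = 0.104), at 9.19, 9.14 and 9.28 in WT Topo, and all 3 Topo arrays were above all 3 DMSO arrays. Btg2, an antiproliferative gene that p53 induces early, read 11.28, 10.19 and 10.19 in WT DMSO and 11.18, 11.62 and 11.33 in WT Topo (difference 0.82 ± 0.27, adjusted p = 0.140). WT DMSO 1 was the one DMSO array within the Topo range. Without the first DMSO array of each genotype, both genes passed the test, Btg2 at 1.19 (adjusted p = 0.0173, range over its alternatives 0.0173 to 0.495) and Plk2 at 1.08 (adjusted p = 0.0284, range 0.0284 to 0.312). Over all alternatives Tnfrsf10b lost its call only without WT Topo 1 (adjusted p = 0.0700, range 0.00197 to 0.0700), whereas Ephx1 lost its call when any 1 of the 6 arrays was left out (adjusted p 0.0664 to 0.186). Without WT Topo 1 no member was called. Other cell lists moved in the same comparison: a mitosis list (11 of 12 genes measured) had array means of 8.99 to 9.21 in WT DMSO and 8.18 to 8.63 in WT Topo, and a tuft-like epithelium list (12 of 13 measured) 9.22 to 9.44 against 9.95 to 10.23. Their part in the members' values was not tested.

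In KO cells Topo changed 1 member, Tnfrsf10b, which fell, beside 1.03% of all genes called, 0.253% rising and 0.78% falling. It read 10.69, 10.63 and 10.84 in KO DMSO and 9.88, 10.20 and 10.11 in KO Topo, without overlap, and fell by 0.65 ± 0.15 (adjusted p = 0.0300). The KO Topo arrays overlapped with the WT DMSO arrays for this gene. The call was lost without KO DMSO 1, KO DMSO 3, KO Topo 1 or KO Topo 3 (adjusted p 0.0647 to 0.189). In the same comparison 8 of 11 mitosis genes fell and 2 of 12 tuft-like genes rose, and their part was not tested. Plk2 read 8.93, 7.91 and 7.95 in KO DMSO and 9.43, 8.28 and 8.99 in KO Topo, where the arrays overlapped (difference 0.64 ± 0.27, adjusted p = 0.334). Btg2 read 11.04, 10.48 and 10.39 against 11.65, 10.53 and 11.06 (difference 0.44 ± 0.27, adjusted p = 0.563). Eda2r read 9.02, 8.23 and 8.45 in KO Topo (difference 0.38 ± 0.19, adjusted p = 0.452). Both also overlapped with KO DMSO. No member was higher and 3 were lower without overlap, against 7.62% and 8.79% of all genes. The members' median difference with Topo was -0.04 in KO, beside 0.01 over all genes, and 0.11 in WT, beside 0.00 over all genes. The effect of Topo differed between genotypes past the test for 0 of 32 members (0.0759% of all genes). At an unadjusted p under 0.05 there was 1 member (3.13%, beside 4.74% of all genes).

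Both drugs together changed 7 members in WT cells: 3 rose (Plk2, Ephx1 and Polk) and 4 fell (Sesn2, Epha2, Tnfrsf10b and Fas). Over all genes 10.9% were called, 3.6% rising and 7.28% falling, against 9.38% of members rising and 12.5% falling. The members' median difference was -0.02, beside -0.01 over all genes, and it was 0.05 after quantile normalization and 0.04 after median centring, so that its sign followed the scaling. The arrays did not overlap for 7 members that were higher and 5 that were lower, against 12% and 18.5% of all genes.

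Plk2 read 9.39, 9.32 and 9.01 in WT EtopoTopo, above all WT DMSO arrays, and rose by 0.90 ± 0.27 (adjusted p = 0.0317). Sesn2, a sestrin induced by several stresses besides p53, read 10.93, 10.53 and 10.24 in WT DMSO and 9.94, 9.71 and 9.86 with both drugs, without overlap. It fell by 0.73 ± 0.21 (adjusted p = 0.0277). Its relative Sesn1, on the same arrays, read 9.01, 9.09 and 8.64 and did not pass the test. Epha2, an ephrin receptor, read 9.16, 8.70 and 8.47 in WT DMSO against 8.27, 8.19 and 8.10 (change -0.59 ± 0.16, adjusted p = 0.0221). Here too no arrays overlapped.

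Ephx1 read 10.47, 10.29 and 10.26 in WT EtopoTopo and rose by 0.59 ± 0.16 (adjusted p = 0.0193). Tnfrsf10b read 9.66, 9.79 and 9.62 and fell by 0.56 ± 0.15 (adjusted p = 0.0157). Polk read 8.68, 8.63 and 8.46 and rose by 0.44 ± 0.13 (adjusted p = 0.0366). These 3 genes were separated from DMSO on every array. Fas read 9.87, 9.49 and 9.69 in WT DMSO and 9.15, 9.28 and 9.35 with both drugs, and fell by 0.42 ± 0.14 (adjusted p = 0.0495). Beside these changes all 11 measured genes of the mitosis list fell, with array means of 8.99 to 9.21 in WT DMSO and 7.99 to 8.38 with both drugs. Of the 12 tuft-like genes 9 rose (9.22 to 9.44 against 10.26 to 10.47), and the part of either list was not tested.

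Age and the labels bear on this comparison, since all WT EtopoTopo arrays are from 4-week mice and only WT DMSO 3 is so among the DMSO arrays. With age as a covariate Tnfrsf10b alone was called (-0.79, adjusted p = 0.0110, range over its alternatives 0.0101 to 0.456). Against WT DMSO 3 alone, on the 4-week arrays, the changes were 0.94 for Plk2, -0.78 for Tnfrsf10b, 0.50 for Ephx1, -0.40 for Sesn2 and -0.28 for Epha2. With 1 DMSO array and 3 residual degrees of freedom that fit called 0 of all genes, so its lack of calls says nothing about the members. Leaving out single arrays gave 2 to 6 members called, and leaving out WT EtopoTopo 1 and 2, whose labels conflict, gave none, although that leaves 1 array in the group, assumed to vary like the others, and 251 genes called over all. Each of the 7 genes lost its call when some single array was left out: Tnfrsf10b without WT DMSO 3 or WT EtopoTopo 3 (adjusted p 0.0614 to 0.0745), Ephx1 without WT DMSO 1 or WT EtopoTopo 1 (0.0670 to 0.102), Polk without WT DMSO 2, WT EtopoTopo 1 or WT EtopoTopo 2 (0.101 to 0.172), Epha2 without WT DMSO 1, WT EtopoTopo 2 or WT EtopoTopo 3 (0.0668 to 0.155), Sesn2 without WT DMSO 1, WT DMSO 2, WT EtopoTopo 2 or WT EtopoTopo 3 (0.0602 to 0.164), Plk2 without WT DMSO 2, WT DMSO 3, WT EtopoTopo 1 or WT EtopoTopo 2 (0.0692 to 0.135), and Fas without any single array other than WT DMSO 2 (0.0763 to 0.214).

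**Figure D3:**
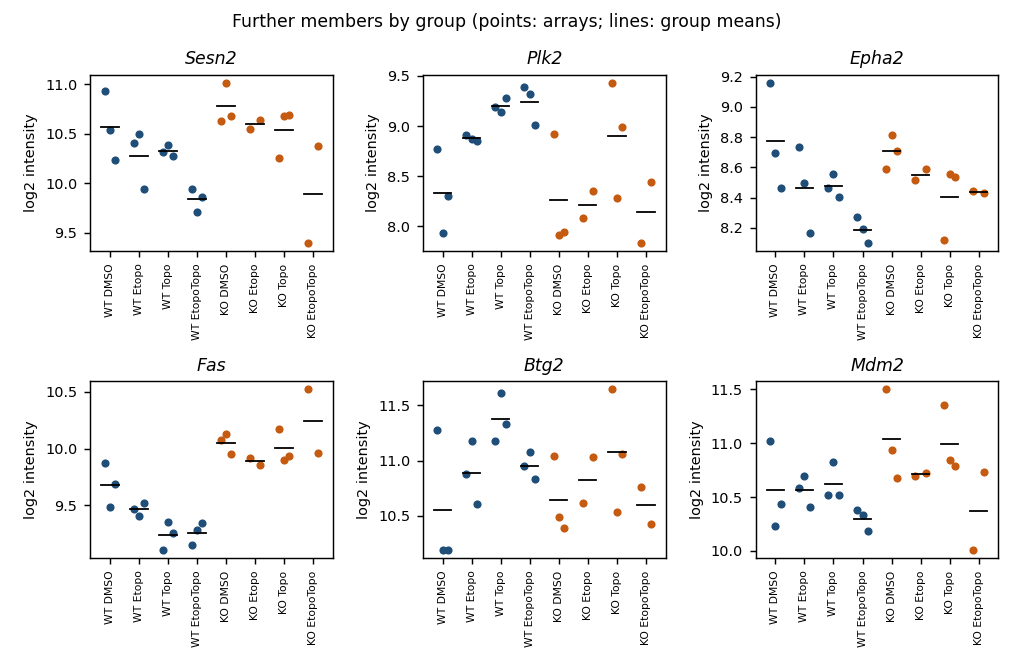
Log2 intensity of 6 members in all 8 groups (WT blue, KO orange; points: arrays; lines: group means). Plk2 rises from a mean of 8.34 in WT DMSO to 9.24 in WT EtopoTopo, while in KO EtopoTopo its 2 arrays stand at 7.84 and 8.44, and Sesn2 is lowest on the library KO EtopoTopo 1, at 9.40.

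In KO cells both drugs together changed 4 members, all of which fell: Sesn2, Gadd45a, Tnfrsf10b and Rrm2b. Over all genes 22.8% were called, 11.1% rising and 11.7% falling. Of the 32 members 26 had a negative difference, with a median of -0.30 beside 0.06 over all genes, and 13 had an unadjusted p under 0.05, all negative (40.6% of members, beside 41.4% of all genes in either direction). No member was higher and 9 were lower without overlap between the arrays, against 27.3% and 18.9% of all genes. Sesn2 read 10.63, 11.02 and 10.68 in KO DMSO and 9.40 and 10.38 in KO EtopoTopo, and fell by 0.89 ± 0.23 (adjusted p = 0.0158). Gadd45a read 9.48, 9.70 and 9.69 against 8.36 and 9.25, and fell by 0.82 ± 0.21 (adjusted p = 0.0138). In both genes no arrays overlapped, but the first EtopoTopo array lay far below the other. Tnfrsf10b read 9.88 and 10.24 with both drugs and fell by 0.65 ± 0.16 (adjusted p = 0.0126). Rrm2b read 9.24, 8.72 and 8.93 in KO DMSO against 8.16 and 8.83, where the second array was within the DMSO range, and fell by 0.47 ± 0.17 (adjusted p = 0.0497). Mdm2, at 10.01 and 10.73, was 0.67 ± 0.24 lower without passing the test (adjusted p = 0.0523), and so was Trp53inp1, a stress protein that modulates p53, at 9.78 and 10.52 (-0.66, adjusted p = 0.0652).

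Other lists moved here too: 9 of 11 mitosis genes fell (array means of 8.79 to 9.14 in KO DMSO against 7.93 and 8.17), 7 of 16 medullary epithelium genes fell (11.66 to 11.76 against 10.94 and 11.51) and 3 of 12 tuft-like genes rose. Their part was not tested. KO EtopoTopo 2 lay below all KO DMSO arrays for Sesn2, Gadd45a and Tnfrsf10b, but not for Rrm2b. KO EtopoTopo 1 lay lower for each of these genes, and the falls were larger with it. That array was the lowest of all 22 for 15 of the 32 members, as it was for 16.7% of all genes, and the highest for 2 (Ccng1 and Fas), as for 23.1% of all genes. The members' calls did not hold without it, but that fit has 1 array in the group, as has the fit without KO EtopoTopo 2. The changes without KO EtopoTopo 1 were -0.40 for Sesn2, -0.37 for Gadd45a, -0.47 for Tnfrsf10b and -0.13 for Rrm2b. Rrm2b also lost its call without KO DMSO 1 or KO DMSO 3. After quantile normalization 2 members rose and 2 fell. Both KO EtopoTopo arrays are from 4-week mice and all KO DMSO arrays from 6-week mice, so that age and treatment cannot be told apart within KO. With age as a covariate over all groups no member was called, beside 5 of all genes, so this lack of calls says little about the members. Age varies within a group only in WT DMSO and WT Etopo, through WT DMSO 3 and WT Etopo 3.

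**Figure D4:**
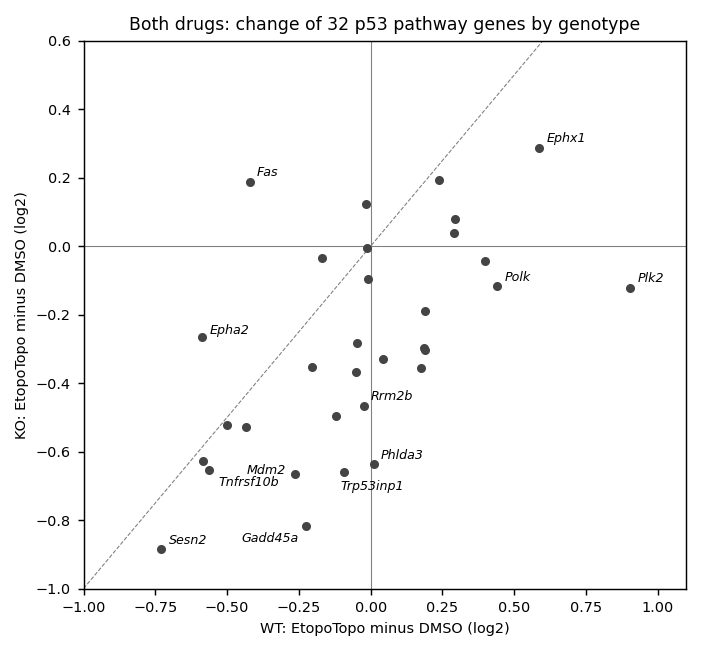
Log2 change with both drugs in KO cells (vertical axis) against that in WT cells (horizontal axis) for the 32 p53 pathway genes (points), with the dashed line marking equal change. In WT 13 of the 32 points lie above 0 on the horizontal axis, and in KO 6 of the 32 lie above 0 on the vertical axis.

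The difference between the genotypes in the effect of both drugs was past the test for 0 of 32 members, beside 2.46% of all genes, 2.35% with a more positive and 0.106% with a more negative change in KO. At an unadjusted p under 0.05 there were 7 members (21.9%, beside 14.7% of all genes), 6 with a more negative change in KO and 1, Fas, with a more positive one. Fas was 0.61 ± 0.20 more positive in KO (adjusted p = 0.138), and Plk2 had a difference in change of -1.03 ± 0.40 (adjusted p = 0.223). The members' median difference between genotypes was -0.28, beside 0.03 over all genes. Leaving out either KO EtopoTopo array leaves 1 array in the group, so counts of members past the test from those fits say little about the members.

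The drugs were also set against each other within WT cells, where no member was past the test in any of 3 comparisons. Topo against Etopo gave 0 of 32 (0.00506% of all genes), with 1 member, Tnfrsf10b, at an unadjusted p under 0.05 (-0.57, lower with Topo). That was 3.13% of members, beside 4.45% of all genes. Without overlap, 3 members were higher and 2 lower with Topo, against 11.8% and 5.34% of all genes. EtopoTopo against Topo gave 0 of 32 (0.38% of all genes), with 3 members at an unadjusted p under 0.05 (9.38%, beside 15.0% of all genes). The largest of these was Ei24, a protein of the endoplasmic reticulum that p53 induces, which read 10.75, 10.83 and 10.94 with Topo and 10.28, 10.10 and 10.12 with both drugs, where no arrays overlapped (-0.68, adjusted p = 0.137). Without overlap, 4 members were higher and 10 lower with both drugs than with Topo, against 11.5% and 16.4% of all genes. EtopoTopo against Etopo gave 0 of 32 (3.71% of all genes), with 3 members at an unadjusted p under 0.05 (9.38%, beside 21.4% of all genes). Here 1 member was higher and 6 lower without overlap, against 15.8% and 15.4% of all genes. A fit on the arrays of both groups alone called 3 members in EtopoTopo against Topo (Ei24, Sesn2 and Pmaip1, all lower with both drugs) and 1 (Ei24, also lower) in EtopoTopo against Etopo. Over all genes such fits called 1500 and 1785, beside 75 and 733 in the fit over all arrays. The doses are not known to match, so these values compare groups and not drugs at equal dose. All WT EtopoTopo arrays are from 4-week mice and all WT Topo arrays from 6-week mice, so age and treatment cannot be told apart there. Among the WT Etopo arrays only WT Etopo 3 is from a 4-week mouse. With age as a covariate, both comparisons with EtopoTopo called 0 of all genes, so that fit says little about the members. The labels of WT EtopoTopo 1 and 2 also conflict, as stated above.

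Across the 6 comparisons of a drug with DMSO, which share their DMSO arrays within a genotype, 23 of the 32 members were called in none. The same share over all genes was not counted, and each single comparison called between 0% and 22.8% of them. Bbc3 and Pmaip1, the BH3-only killers also called Puma and Noxa, were called in no comparison, with Bbc3 between 7.07 and 7.55 and Pmaip1 between 7.80 and 9.78 over all 22 arrays. Sfn, the cell cycle inhibitor 14-3-3 sigma, was called in no comparison with DMSO on the probe kept for it, but its 2 probes differed. With both drugs in KO the kept probe gave a difference of -0.35 ± 0.17 (adjusted p = 0.114), the other probe, fitted after seeing the data, -0.87 ± 0.24 (adjusted p = 0.0177) and the mean of both -0.61 ± 0.19 (adjusted p = 0.0309).

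The first DMSO array of each genotype stood apart for several members. WT DMSO 1 and KO DMSO 1 were both the highest of their 3 arrays for 11 members, against 15% of all genes, and both lay at least 0.5 above the mean of the other arrays for 7 members (Mdm2, Btg2, Plk2, Plk3, Eda2r, Pmaip1 and Trp53inp1), against 1.42% of all genes. Btg2 stood 1.09 above the others in WT and 0.60 in KO, and Pmaip1 1.19 and 0.63. These arrays also had the highest means of a thymocyte list (15 of 17 genes measured), at 8.21 for WT DMSO 1 and 8.60 for KO DMSO 1, while no other array exceeded 7.51. The part of that list in these members' values was not tested. Without both arrays, 6 members were called between KO and WT, 3 with both drugs in WT and none with Topo in KO. Over all genes the counts fell too, to 3179, 1227 and 120, from 3825, 2149 and 204 with all arrays.

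Further genes of the pathway were taken from a list of 20 regulators of p53, of which 19 were measured, and one of 32 other p53 targets, of which 28 were measured. Between KO and WT under DMSO, 1 regulator rose and 1 fell. Crebbp, an acetyltransferase that acts on p53, rose by 0.42 (adjusted p = 0.0425), a call lost without WT DMSO 2, KO DMSO 1 or KO DMSO 3 (0.0869 to 0.218), and Trp73, a p53 family member, fell by 0.63 (adjusted p = 0.00196). Of the other targets 2 rose, Rprm, a mediator of G2 arrest, by 0.66 (adjusted p = 0.0145) and the cyclin gene Ccng2 by 0.64 (adjusted p = 0.00302). The 2 that fell were Steap3, an endosomal ferrireductase (-0.43, adjusted p = 0.0109), and Pidd1, a death-domain protein (-0.41, adjusted p = 0.00791). Rprm lost its call without WT DMSO 3 or KO DMSO 3 (0.0681 to 0.118) and on the 6-week arrays alone, and Steap3 without WT DMSO 2 (0.0855). The 6 genes called were 12.8% of the 47, below the 19.4% of all genes. With Etopo or Topo alone limma called 0 of these 47 genes in either genotype. At an unadjusted p under 0.05 there were 2 with Etopo in WT (5.55% of all genes), 3 with Topo in WT (11.5%), 3 with Etopo in KO (3.58%) and 8 with Topo in KO (11.6%).

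With both drugs in WT, Rpl5, a ribosomal protein that can hold Mdm2 away from p53, was the one regulator past the test. It averaged 11.54 ± 0.20 (SD, n = 3) in WT DMSO, 11.48 ± 0.19 (SD, n = 3) in WT Topo and 10.74 ± 0.31 (SD, n = 3) in WT EtopoTopo, and fell by 0.80 (adjusted p = 0.00837). Among the other targets Rps27l, a ribosomal protein paralogue that p53 induces, fell by 0.80 (adjusted p = 0.0152), Rprm fell by 0.58 (adjusted p = 0.0487) and the translesion polymerase gene Polh fell by 0.48 (adjusted p = 0.0478). None of the 47 rose, and the 4 that fell were 8.51% of them, beside 10.9% of all genes called. Rpl5 (-0.79, adjusted p = 0.0269) and Rps27l (-0.83, adjusted p = 0.0323) also fell between Etopo and EtopoTopo in WT, as the 2 of 47 called there (4.26%, beside 3.71% of all genes), both calls being lost without WT Etopo 1, WT Etopo 2, WT EtopoTopo 2 or WT EtopoTopo 3 (0.0510 to 0.228). With both drugs against DMSO in WT, Rpl5 lost its call without WT EtopoTopo 2 (adjusted p = 0.0681) and Rps27l without WT DMSO 1 or WT EtopoTopo 2 (0.0970 to 0.106), while Rprm lost its call without 5 of the 6 single arrays and Polh without each of the 6. All 4 also lost their calls with age as a covariate, where 462 of all genes were called. Between Etopo and EtopoTopo that covariate left 0 of all genes called. With both drugs in KO, 3 regulators fell (Rpl5 by -1.18, Cop1 by -0.67 and Trp53bp1 by -0.60) and 1 rose (Trp73, 0.49). Of the 28 other targets 7 fell: Rprm (-0.91), Rps27l (-0.87), Cd82 (-0.75), Dram1 (-0.58), Ckap2 (-0.58), Polh (-0.55) and Ccng2 (-0.50). These 11 genes were 23.4% of the 47, close to the 22.8% of all genes called. None of the 11 was called with age as a covariate, where 5 of all genes were. The same held on the groups compared alone, where 0 of all genes were called. All 11 calls were lost without KO EtopoTopo 1, which leaves 1 array in the group. The changes were then -0.97 for Rpl5, -0.59 for Cop1, -0.79 for Rprm, -0.83 for Rps27l, -0.25 for Trp53bp1 and 0.30 for Trp73. They were -0.23 for Cd82, -0.16 for Dram1, -0.43 for Ckap2, -0.35 for Polh and -0.42 for Ccng2.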

How the data were processed

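The deposited table holds 1 intensity per probe and array on a linear scale. Per the submitters' processing notes, the authors used Affymetrix Power Tools and RMA, and no version, annotation or genome build is given in the sources used here. All 22 columns were matched to samples by name, with 0 columns left out. Of 24922 probes, 21425 carry 1 gene symbol, 1399 several and 2098 none, in GEO's platform annotation. The probe with the highest mean stood for each of 19752 genes.

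Values were taken as log2 of the deposited intensity, with no pseudocount, filter or further scaling. A model with 1 mean per group was fitted over all 22 arrays (limma 3.58.1, R 4.3.3, lmFit with eBayes; 14 degrees of freedom from the residuals and 7.22 from the prior), with Benjamini-Hochberg adjustment over all genes of each contrast and calls at an adjusted p under 0.05. The script was tested on simulated data. The number of arrays limits the precision.

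Members, lists and tests were chosen with earlier results of these data known. Every member could be named. Values on every array were given for members called in a contrast and for the 4 with the largest absolute change in each contrast of a drug with DMSO or of KO with WT under DMSO, on the arrays of the groups compared. Of the other p53 targets and regulators, called genes were named. Ei24, Bbc3, Pmaip1 and Sfn, and the uncalled values of Mdm2 and Fas between genotypes, were chosen after their values were seen.

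Same-numbered arrays of different groups did not deviate together on average (mean r = -0.01 over 71 pairs, single pairs from -0.56 to 0.59), and numbers were not used as pairs. An average over all groups cannot show if some groups were paired. The first DMSO arrays of both genotypes did stand high together for several members, as given above. Alternatives were quantile normalization, median centring, the mean over probes, a filter on dim probes, other sets of arrays, age as a covariate, a replicate block and leaving out each array. Promoter sequences came from RefSeq (GRCm38.p6).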

Additional observations from a re-analysis of the deposited data

Results flagged for a closer look

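Trp73, the p53 family member among the regulators, is listed because the effect of both drugs on it differed between the genotypes by a test of that difference. Its group means were 7.62 ± 0.24 (SD, n = 3) in WT DMSO, 7.33 ± 0.10 (SD, n = 3) in WT EtopoTopo, 6.98 ± 0.19 (SD, n = 3) in KO DMSO and 7.47 ± 0.27 (SD, n = 2) in KO EtopoTopo. The change with both drugs was 0.78 ± 0.21 higher in KO than in WT (limma, adjusted p = 0.0470). The call held in 5 of 21 alternatives, with the difference between 0.49 and 0.97 and the adjusted p between 0.00561 and 0.463. It was lost without KO EtopoTopo 1 and without any of 8 other single arrays. No member of the p53 pathway list was listed by the same rule.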

How the results depend on the processing

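Leaving out each array in turn gave 5 to 8 members called in KO against WT under DMSO, 0 to 2 with Topo in WT, 2 to 6 with both drugs in WT, 0 to 1 with Topo in KO, 0 to 12 with both drugs in KO and 0 to 7 in the genotype difference of both drugs, and 0 to 0 in each other comparison. Fits on the groups compared alone called 0 with Topo in KO, 0 with both drugs in KO, 3 in EtopoTopo against Topo and 1 in EtopoTopo against Etopo. Over all genes these fits called 0, 0, 1500 and 1785. With age as a covariate, 1 was called with Topo in WT, 1 with both drugs in WT and 0 with both drugs in KO, and in EtopoTopo against Topo the sign turned for Btg2 (0.058), Pmaip1 (0.11) and Sesn2 (0.012). Without both DMSO arrays numbered 1 there were 3 with both drugs in WT and 0 with Topo in KO. Both drugs in WT gave 0 without WT EtopoTopo 1 and 2 and 0 on 4-week arrays, where 1 array is left in an arm and the second fit called no gene at all, and Topo in WT gave 1 on 6-week arrays. An alternative chosen after seeing the data, without KO EtopoTopo 1 and with quantile normalization, gave 0 with both drugs in KO. A replicate block, although same-numbered arrays did not deviate together on average, gave 9 in KO against WT, 2 and 5 with Topo and both drugs in WT, and 1 and 5 in KO. Over all genes, both drugs called 2149 in WT (462 with age, 251 without WT EtopoTopo 1 and 2, 1227 without both DMSO arrays numbered 1, 0 on 4-week arrays) and 4513 in KO (5 with age, 0 on the groups alone, 2897 after quantile normalization, 68 without KO EtopoTopo 1), and leaving out each array gave 68 to 9170 in KO, 1110 to 1944 in WT, 103 to 348 with Topo in WT (436 with all arrays), 1 to 181 with Topo in KO (204) and 123 to 4178 in the genotype difference of both drugs (486). In KO against WT, 1462 genes rose and 2363 fell, against 1823 and 1947 after quantile normalization and 2419 and 1867 after median centring. The filter on dim probes changed no count of members called, and the mean over probes added 1, Sfn, with both drugs in KO (-0.61, adjusted p = 0.0309), giving 5.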
